A study of Oryza sativa with 4 samples.

Results

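Glutaredoxin genes were examined in leaves of rice (Oryza sativa) plants that overexpress the transcription factor OsBIERF3 (OsBIERF3-OE), against wild type plants (WT). Of 10 glutaredoxin genes looked up by symbol or synonym, 9 were read by the array: GRXS1, GRXS2, GRXS3, GRXS4, GRXS5, GRXS6, GRXS10, GRXS12 and GRXC8. They are read by 12 probe sets, out of 57258 probe sets for 17905 named genes and for sequences unnamed here; GRXC2 had no probe set assigned to it. The genes were chosen by name from a family that had drawn notice in earlier results of this same comparison, in which the low OsBIERF3-OE signal of GRXS1 stood out. Their values are therefore given as a description, with no test over the family.

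Both groups were leaves of 3-week-old plants, with 2 OsBIERF3-OE and 2 WT samples and 1 single-colour array per sample, grown under normal conditions. OsBIERF3 belongs to the ethylene-responsive factor type of transcription factor. The promoter used for overexpression, the rice cultivar and the number of transgenic lines are not given in the sources used here. No check of the labels through OsBIERF3's own signal was made. The replicates carry the label biological with no word on separate plants or pools, so the spread between them may be partly technical.

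Glutaredoxins are small redox proteins that use glutathione to reduce disulfide bonds or to take glutathione off other proteins, and oxidised glutathione is then reduced by glutathione reductase. In the plant naming, S in a symbol marks a serine and C a cysteine as the last residue of the active site, which separates monothiol from dithiol forms. Some plant glutaredoxins bind iron-sulfur clusters, and those of the CC type, known from Arabidopsis ROXY1 and ROXY2, bind TGA transcription factors in the nucleus. Thioredoxins are a related family that is reduced by thioredoxin reductases instead of glutathione.

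The arrays were alike in total, with a summed signal between 16286703 and 16466346. The brightest control probe set with no target in rice read 28.0 and 26.5 on the OsBIERF3-OE arrays and 25.9 and 25.1 on the WT arrays, and this was taken as the background level. The leaf genes CAB2R, of the light-harvesting complex, and RCA, Rubisco activase, were bright on all 4 arrays: CAB2R read 11150 and 11550 in OsBIERF3-OE and 12670 and 11840 in WT. Only 3 of 13 listed leaf markers were measured. Of these, RCA and PSAG fell and CAB2R did not pass, with a summed signal of 17558 to 18728 in OsBIERF3-OE and 21222 to 21902 in WT. All 6 panicle and anther markers lay below background on every array, as did the root gene LSI2 and the endosperm gene GLUA1. The root gene LSI1 and the endosperm gene GLUA2 were above background on every array. LSI1 read 184.6 and 102.9 in OsBIERF3-OE and 283.5 and 234.7 in WT, and did not pass. GLUA2 fell, with 318.4 and 294.8 in OsBIERF3-OE and 602.9 and 598.3 in WT. Of 11 measured markers of dividing cells, 10 rose in OsBIERF3-OE by limma's adjusted p, against 17.2% higher and 14.5% lower over all genes tested. The summed signal of the 11 was 4582 to 4866 in OsBIERF3-OE and 405 to 406 in WT. The WT signals of MCM3, MCM5, MCM6, MCM7, CYCB2-1 and CYCB2-2 were not above background. MCM7, at 10.4 and 10.2 in WT, and CYCB2-2, at 14.5 and 10.0, lay there on average under the lowest mean signal tested (12.3). Both thus entered the test through their OsBIERF3-OE signals alone. The meristem gene OSH1 was below background on every array. For GAPDH, the signal of the 3′ control probe set over that of the 5′ one, a sign of RNA or cRNA integrity, was 7.37 and 7.25 in OsBIERF3-OE and 12.8 and 11.2 in WT. The part that dividing cells or RNA integrity has in any glutaredoxin difference was not tested.

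GRXS1 (LOC4327130) showed by far the widest difference among the glutaredoxin genes. Its signal was 36.6 and 32.3 on the OsBIERF3-OE arrays, against 516.4 and 464.0 on the WT arrays. Both OsBIERF3-OE arrays were low and close to each other, both WT arrays were high, and the groups did not overlap. The means were 34.5 ± 3.04 in OsBIERF3-OE and 490.2 ± 37.0 in WT (SD, n = 2 each), a log2 difference of -3.83 ± 0.15 (standard error of the fit), or 14.2-fold higher in WT. The OsBIERF3-OE signal was above the background level on both arrays (28.0 and 26.5) but close to it, so the size of that ratio rests on a dim signal. With 16 added to each signal before the log2, the difference was -3.33. In bulk leaf RNA, fewer cells that make the transcript and less transcript per cell cannot be told apart.

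**Figure D1:**
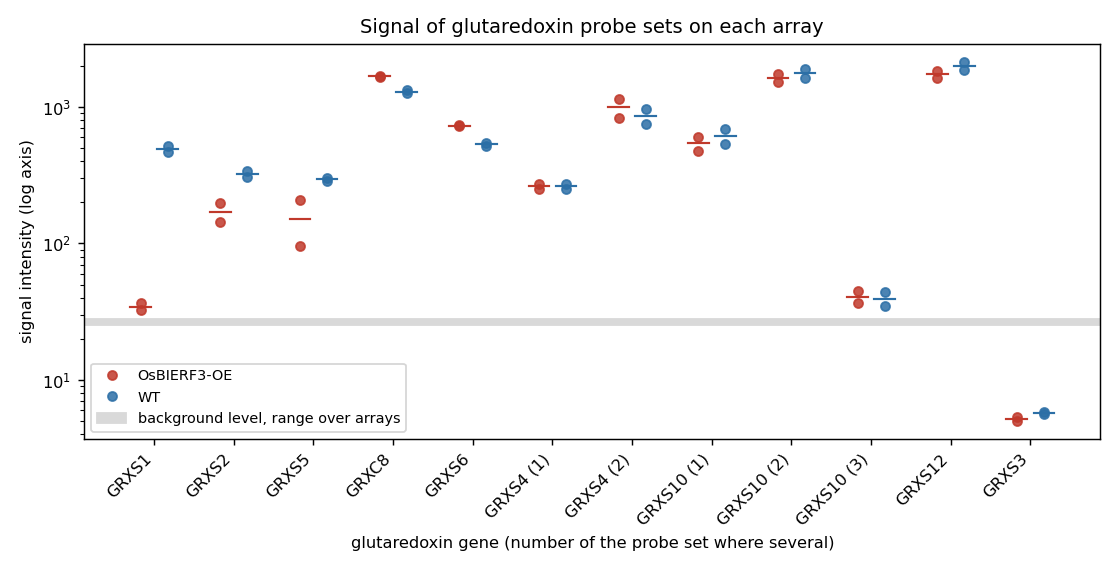
Signal intensity (log axis) of each of the 12 glutaredoxin probe sets on the 2 OsBIERF3-OE arrays (left of each pair) and the 2 WT arrays (right), with a short line at each mean. GRXS1 is at 36.6 and 32.3 in OsBIERF3-OE and at 516.4 and 464.0 in WT, while GRXS3 lies below the grey band, which spans the background level of the 4 arrays.

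GRXS2 and GRXS5 also had lower signals in OsBIERF3-OE, with smaller differences than GRXS1, and GRXS5 did not pass the adjusted p. GRXS2 (LOC4327316) read 197.7 and 143.5 in OsBIERF3-OE and 337.6 and 307.8 in WT. All OsBIERF3-OE values were below all WT values, and the log2 difference was -0.94 ± 0.19, or 1.91-fold higher in WT. The suffix of this probe set marks probes that can match more than one transcript, so its signal may be shared. GRXS5 (LOC4326324) read 206.3 and 96.1 in OsBIERF3-OE and 288.3 and 299.6 in WT. The WT arrays agreed within 1.04-fold, but the OsBIERF3-OE arrays lay 2.15-fold apart, against a median of 1.12-fold over all tested probe sets in that group. The log2 difference of GRXS5 was accordingly uncertain at -1.06 ± 0.36, and it was -0.51 with OsBIERF3-OE replicate 2 left out and -1.61 with replicate 1 of that genotype left out.

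GRXC8 and GRXS6 were higher in OsBIERF3-OE by small amounts with close replicates. GRXC8 (LOC4341733) read 1657 and 1687 in OsBIERF3-OE and 1321 and 1254 in WT, a log2 difference of 0.38 ± 0.10. GRXS6 (LOC4330145) read 725.8 and 731.4 in OsBIERF3-OE and 546.3 and 519.6 in WT, a log2 difference of 0.45 ± 0.11. For both genes the groups did not overlap, and the 2 arrays of a genotype differed by at most 1.05-fold. The folds were 1.3 for GRXC8 and 1.37 for GRXS6.

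The probe sets of GRXS4, GRXS10 and GRXS12 did not pass the adjusted p of the limma fit, and in all of these except that of GRXS12 the groups overlapped. GRXS4 (LOC4327794, also listed as RXY1) was read by a pair of probe sets: the first gave 249.7 and 273.1 in OsBIERF3-OE and 250.0 and 274.3 in WT, a ratio of 0.997. Its other probe set gave 1147 and 831.8 in OsBIERF3-OE and 751.4 and 957.5 in WT, with overlapping groups and a log2 difference of 0.20 ± 0.20. GRXS10 (LOC9269420) was read by 3 probe sets with log2 differences of -0.18 ± 0.19, -0.11 ± 0.13 and 0.05 ± 0.19, and the groups overlapped in all 3. The first of them read 603.4 and 476.4 in OsBIERF3-OE and 530.5 and 692.1 in WT, the second 1738 and 1524 in OsBIERF3-OE and 1617 and 1896 in WT. The third read 44.6 and 36.5 in OsBIERF3-OE and 34.6 and 44.0 in WT. GRXS12 (LOC4351647) read 1816 and 1636 in OsBIERF3-OE and 1855 and 2128 in WT, so the groups were just apart, with a log2 difference of -0.21 ± 0.12. GRXS3 (LOC4327691) read 5.36 and 5.03 in OsBIERF3-OE and 5.82 and 5.60 in WT, below background on every array, so it was not among the tested probe sets and no fold is given.

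Counted by limma's adjusted p over all probe sets, 2 of the 11 tested glutaredoxin probe sets were lower in OsBIERF3-OE (GRXS1 and GRXS2), against 11.8% of all probe sets tested. Another 2 were higher (GRXC8 and GRXS6), against 12.4% of all probe sets tested, and 7 did not pass. Since the family was chosen with this contrast in view, nothing is read from these counts. Taking the brightest probe set of each of the 8 tested genes, the median log2 difference was -0.16, and over all 15981 genes tested it was -0.04. The call of GRXS1 held under all 12 alternative settings, with log2 differences between -3.92 and -3.33. GRXS2 did not pass without WT replicate 1, WT replicate 2 or OsBIERF3-OE replicate 2, nor after scaling to the hybridization controls. GRXC8 and GRXS6 did not pass when any 1 of the 4 arrays was left out, and GRXS5 passed without OsBIERF3-OE replicate 1.

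**Figure D2:**
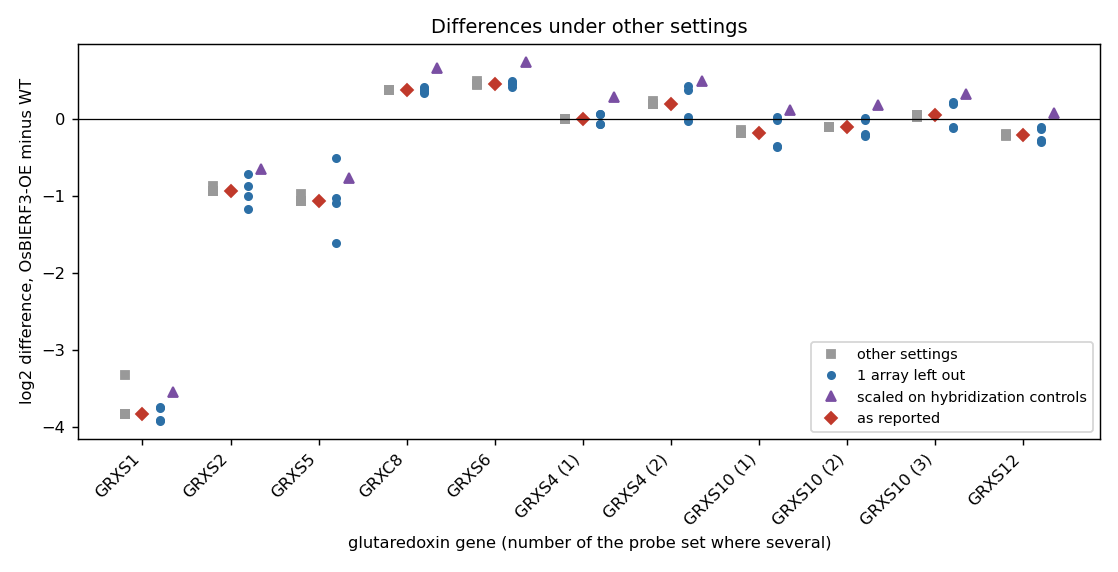
Log2 difference (OsBIERF3-OE minus WT) of each of the 11 tested glutaredoxin probe sets as reported (diamonds) and under the alternatives: 1 array left out (circles), scaling to the hybridization controls (triangles), and the other settings (squares). GRXS1 stays between -3.92 and -3.33, whereas GRXS5 spans -1.61 to -0.51.

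The hybridization controls, which are added to the labelled cRNA in fixed amounts, were lower in OsBIERF3-OE for 26 of 27 probe sets, with a mean log2 difference of -0.29. These probe sets read only the BioB, BioC, BioD and Cre transcripts, several probe sets to a transcript, so they are not independent readings. Scaling the arrays on them moved the median log2 difference of all tested probe sets to 0.25, against -0.04 as deposited, and split the calls into 7729 higher and 1615 lower, against 4273 and 4058. This scaling shifts every probe set by the same amount, so differences relative to the median of all tested probe sets are identical on both scales by construction: -3.79 for GRXS1, -1.02 for GRXS5, -0.90 for GRXS2, 0.42 for GRXC8 and 0.49 for GRXS6. The small negative differences of GRXS12, of the first and second probe set of GRXS10 and of the first of GRXS4 turned positive under that scaling, at 0.08, 0.11, 0.18 and 0.28.

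The array also read 9 named glutaredoxin genes outside the 10 looked up, most of which did not pass. By limma's adjusted p over all probe sets, with 1 probe set per gene, 2 were higher (background 17.2% of all genes tested), 1 was lower (background 14.5%) and 6 did not pass. GRXC10 (LOC4351046) rose, with signals of 46.6 and 46.7 in OsBIERF3-OE and 21.3 and 22.7 in WT (limma adjusted p = 0.00785). The WT signals were not above background, so the rise was at least 1.83-fold, the OsBIERF3-OE mean being set against the background level. GRXC3 (LOC4329462, also listed as ROXY2) passed as higher too, but read 19.1 and 25.1 in OsBIERF3-OE and 6.88 and 7.12 in WT, below background on all arrays, so no fold is given. Its WT signals lay under 12.3, the lowest mean signal tested, so it entered the test through its OsBIERF3-OE signals alone, and it was not among the probe sets tested after quantile normalization.

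GRXS9 (LOC9269297), named after its values were seen, fell to 651.4 and 600.6 in OsBIERF3-OE, against 895.7 and 886.9 in WT (log2 difference -0.51 ± 0.11, limma adjusted p = 0.0276). It did not pass with any single array removed (limma adjusted p of 0.0562 to 0.117) or after scaling to the hybridization controls (0.178). Under that scaling, which called 7729 of all 34355 probe sets higher and 1615 lower, 4 of the 9 other glutaredoxin genes were called higher and none lower (limma, 5 at an unadjusted p under 0.05). GRXC1 (LOC4325734), also named after its values were seen, read 1130 and 91.7 in OsBIERF3-OE and 733.6 and 1252 in WT. Its 2 OsBIERF3-OE arrays thus stood further apart than the genotype means, and its log2 difference of -1.57 ± 1.14 did not pass. The low value was on OsBIERF3-OE replicate 2, the array that also gave the low value of GRXS5, and without that array the log2 difference of GRXC1 was 0.24. Without OsBIERF3-OE replicate 1 it was -3.39 and passed (limma adjusted p = 0.00751).

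**Figure D3:**
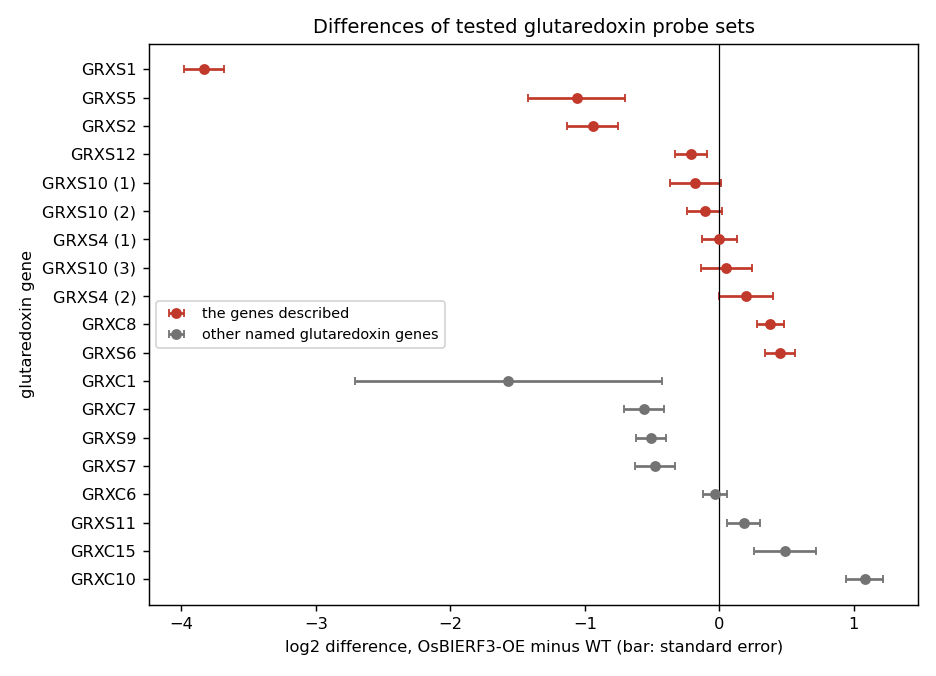
Log2 difference (OsBIERF3-OE minus WT, points) with the standard error of the fit (bars) for the 11 tested glutaredoxin probe sets described here and for the other named glutaredoxin genes with a signal above background on any array. GRXS1 at -3.83 lies left of every other point; the value of GRXC10 is that of the fit, with WT signals not above background, and GRXC3 is not drawn.

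Genes of the surrounding redox system were taken by symbol: other glutaredoxins, thioredoxins and their reductases, nucleoredoxins, peroxiredoxins, glutathione and ascorbate enzymes, and methionine sulfoxide reductases, which repair oxidised methionine. Of 52 such genes tested, 12 fell (background 14.5% of all genes), 6 rose (background 17.2%) and 34 did not pass, with a median log2 difference of -0.24 against -0.04 over all genes. After scaling to the hybridization controls 4 fell and 11 rose, where 1615 of all 34355 probe sets were called lower and 7729 higher. The median of the 52 was 0.05 there, and relative to that of all genes it was -0.20, the same as on the deposited scale. Without WT replicate 1, WT replicate 2 or OsBIERF3-OE replicate 2 calls were lost, as over all probe sets (counts at the end). The median log2 difference was then -0.23, -0.24 and -0.21, in that order.

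The 3 falls named by rule were in APX5, OsTrx01 and MSRB1. APX5 (LOC4351664), an ascorbate peroxidase gene, read 71.5 and 58.2 in OsBIERF3-OE and 145.0 and 167.2 in WT (2.41-fold higher in WT, limma adjusted p = 0.00926), and it passed whichever array was left out. The thioredoxin gene OsTrx01 (LOC4325189) was 1.96-fold higher in WT (limma adjusted p = 0.0168). MSRB1 (LOC4341018), a methionine sulfoxide reductase gene, was 1.81-fold higher in WT by the brightest tested of its 2 probe sets (limma adjusted p = 0.0264). Neither of these passed without WT replicate 1 or without WT replicate 2, OsTrx01 did not pass without OsBIERF3-OE replicate 2, and MSRB1 did not pass with the hybridization control scaling (0.0567). Besides GRXC3 and GRXC10, the rise named by rule was in APX1 (LOC4332474), an ascorbate peroxidase gene, with 3076 and 2826 in OsBIERF3-OE and 1846 and 1540 in WT (1.75-fold, limma adjusted p = 0.0134); without WT replicate 2 its limma adjusted p was 0.0555.

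By group, methionine sulfoxide reductases had 4 falls among 6 genes, against 14.5% of all genes, with all 6 log2 differences below 0, as in 8562 of all 15981 genes, and a median of -0.46. With the hybridization control scaling, which called 1615 of all 34355 probe sets lower and 7729 higher, 1 of the 6 passed as lower. Under it, 5 were below 0 and the median was -0.17. Calls of these genes were lost with any 1 array left out, all of them without WT replicate 2, while calls over all probe sets fell too. The median was then -0.55 without WT replicate 1 and -0.37 without WT replicate 2. It was -0.57 without OsBIERF3-OE replicate 1 and -0.37 without replicate 2 of that genotype. Against the same 14.5% lower and 17.2% higher over all genes, thioredoxins had 4 falls and 1 rise among 14 genes, thioredoxin reductases 1 of each among 4, ascorbate peroxidases with monodehydroascorbate reductases 2 falls and 1 rise among 9, and peroxiredoxins 1 rise among 5. With the hybridization control scaling thioredoxins had 2 falls and 2 rises, with 6 of 14 below 0 and a median of 0.09, against 10 of 14 and -0.19 as deposited. Under it, thioredoxin reductases had 1 rise and no fall (2 of 4 at an unadjusted p under 0.05 by limma), the ascorbate enzymes 1 fall and 2 rises, and peroxiredoxins 2 rises. All thioredoxin calls were lost without WT replicate 2 or without OsBIERF3-OE replicate 2, while calls over all probe sets fell too. The median of the 14 thioredoxin genes was then -0.24 and -0.20, in that order. The 3 nucleoredoxin genes had log2 differences between -1.01 and 0.03, and none passed limma's adjusted p, though 2 had an unadjusted p under 0.05. Glutathione reductase (GRC2) and the gamma-glutamylcysteine synthetase gene GSH1-1, of the enzymes that recycle and make the glutathione that glutaredoxins use, had log2 differences of -0.26 and -0.20, and neither passed. Both were named after their values were seen, as all the tested genes of their list.

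TGA factors and NPR1 homologues are the nuclear partners named above for CC-type glutaredoxins and their coactivators of defence genes. The log2 difference was below 0 in all 11 genes tested, out of 13 with a probe set. Over all genes it was below 0 in 8562 of 15981. TGAL4, 1 of the 11, was below background on every array. Of the 11, 7 fell by limma's adjusted p (background 14.5% of all genes) and 4 did not pass. The median log2 difference was -0.58, against -0.04 over all genes. NH3 (LOC4333666) had the largest of these differences, with 287.5 and 165.0 in OsBIERF3-OE and 517.8 and 687.1 in WT (log2 difference -1.45 ± 0.30, limma adjusted p = 0.0258). These values are those of the brightest tested of its 4 probe sets, and the others are not given. TGA2.1 (LOC4344349) read 365.9 and 318.1 in OsBIERF3-OE and 574.9 and 527.5 in WT (log2 difference -0.69 ± 0.13, limma adjusted p = 0.0211). Both were named after their values were seen. With the hybridization control scaling, which called 1615 of all 34355 probe sets lower, 1 of the 11, NH3, passed. Under it, 9 were below 0 and the median was -0.29. Relative to the median of all genes, that of the 11 was -0.54 on both scales. With any 1 array left out, calls of these genes were lost, as over all probe sets. The median was then -0.56 without WT replicate 1 and -0.60 without WT replicate 2. It was -0.62 when OsBIERF3-OE replicate 1 was left out and -0.59 when replicate 2 of that genotype was.

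**Figure D4:**
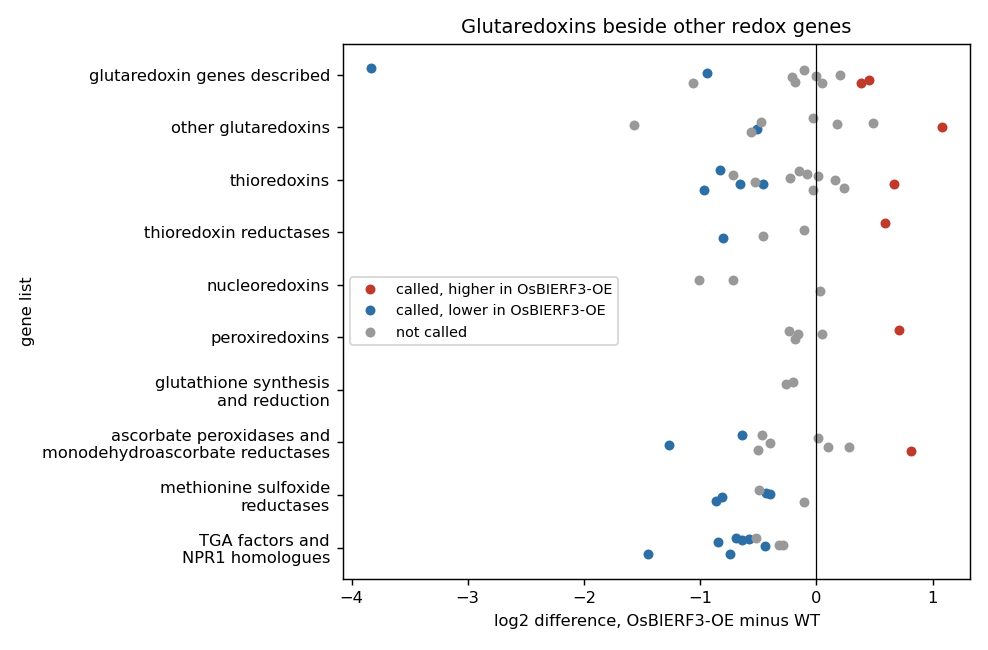
Log2 difference (OsBIERF3-OE minus WT) of the 11 tested glutaredoxin probe sets (top row) and of the tested genes of 9 lists of redox or partner genes, 1 point per probe set in the top row and per gene below (genes with no array above background are not drawn), coloured by the adjusted p of the fit across all probe sets. All TGA factor and NPR1 homologue genes drawn lie left of 0, and GRXS1 at -3.83 lies left of every other point.

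Genes next to the glutaredoxin genes in the RefSeq gene order were then looked at, a step added after the glutaredoxin values had been seen. Of 18 neighbouring protein-coding genes 15 were tested, of which 3 rose (background 17.2%), 3 fell (background 14.5%) and 9 did not pass. The neighbour of GRXS1 on one side, PID2 (LOC4327129), went the opposite way, with 67.5 and 68.5 in OsBIERF3-OE and 34.7 and 32.7 in WT (2.02-fold, limma adjusted p = 0.00962), read by a probe set whose suffix marks possible cross-hybridization. The neighbour on the other side, LOC4327131, had a log2 difference of -0.21 ± 0.10 and did not pass. A protein-coding neighbour of GRXS2 is NH1 (LOC4327315), the NPR1 gene of defence signalling, which fell to 94.4 and 72.0 in OsBIERF3-OE, against 160.0 and 137.6 in WT (log2 difference -0.85 ± 0.19, limma adjusted p = 0.0316), a call that did not hold without WT replicate 1, WT replicate 2 or OsBIERF3-OE replicate 2, nor with the hybridization control scaling.

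Genes with a name were ranked by how near their log2 signals on the 4 arrays, centred on their mean, lay to those of GRXS1. By these distances the 3 nearest were FDRMADS3 (LOC4344493), a MADS-box gene, at a Euclidean distance of 0.831, HSP16.0 (LOC4340661), a small heat shock protein gene, at 0.89, and the phosphate transporter gene OsPht1;4 (LOC4335115) at 1.19. FDRMADS3 read 18.3 and 25.2 in OsBIERF3-OE and 211.1 and 370.7 in WT, at least 10.3-fold higher in WT, since its OsBIERF3-OE signals were not above background. HSP16.0 was at least 2.46-fold higher in WT for the same reason. Its OsBIERF3-OE signals, 8.9 and 8.55, lay under 12.3, the lowest mean signal tested. It thus entered the ranking through its WT signals alone. OsPht1;4 was 6.87-fold higher in WT, read by a probe set whose suffix marks possible cross-hybridization. The distances of FDRMADS3 and HSP16.0 rest on OsBIERF3-OE signals not above background, so their order is not a measured one, and the likeness as a whole rests on 4 arrays of 2 genotypes.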

How the data were processed

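The authors deposited 1 signal intensity per probe set and array, with values on a linear scale; per the labels' protocols the arrays were hybridized with biotin-labelled cRNA. The submitters' processing notes name MAS5 alone, and normalization between arrays is not given in the sources used here. After a lower limit of 1 and log2 transformation, and with 123 controls removed, the 34355 probe sets in the upper 60% by mean signal entered a limma 3.58.1 model of genotype (R 4.3.3; lmFit, then eBayes with a mean-variance trend; Benjamini-Hochberg adjustment at 0.05). The fit was tested on simulated data and had 2 residual degrees of freedom, and the number of arrays limits the precision. Log2 differences are OsBIERF3-OE minus WT.

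Gene names came from the platform's probe annotation, joined by gene ID to RefSeq (GCF_034140825.1) with pandas 2.3.3 in Python 3.11.15. All 17905 genes matched, 95 probe sets with several genes were not named, and 34727 are unnamed here. Coordinates served only to order the genes along each chromosome for the neighbours, and are not given. For each array, the background level was the highest signal among 33 controls that have no rice target. The deviations of same-numbered arrays from their group means had a weak negative correlation (-0.249 over tested probe sets), so the numbers were not taken as pairs.

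The glutaredoxin genes and gene lists were chosen with earlier results of these data known. All of the 10 glutaredoxin genes looked up that have a probe set are named. Named by rule are up to 3 rises and 3 falls of the redox lists, the largest past the adjusted p with groups apart. So are the 3 genes nearest to GRXS1. Apart from markers of cell types and TGAL4, named as below background, any other gene is said to be named after its values were seen or by its place. Planned protein and promoter sequences were not used here. Alternatives covered the pseudocount, filter, normalization, trend, replicate block and each array left out.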

Additional observations from a re-analysis of the deposited data

How the results depend on the processing

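Of the glutaredoxin probe sets, 4 passed as reported. The count was 2 with no filter on dim probe sets, 2 without the variance trend and 2 with the replicate block, GRXC8 and GRXS6 being lost each time, and 1 to 3 with 1 array left out. Over all probe sets 8331 passed as reported, 4540 with the replicate block and 3270 to 6171 with 1 array left out. Of the redox list genes, 18 passed as reported, 7 with the replicate block and 3 to 18 with 1 array left out. Leaving out an array leaves 1 array in a genotype, which is then assumed to vary like the other genotype. With the arrays paired crosswise, an alternative chosen after seeing the data, 12339 probe sets, 5 glutaredoxin probe sets and 30 redox list genes passed. The other settings left the 3 counts within 1.5 times. No call of a glutaredoxin gene changed direction under any setting run. The cause of the lost calls was not tested. GRXS3 and the WT level of GRXC10 are limited by signal over background.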
